A study of Mus musculus with 2 samples.

Results

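Follicular helper-like CD4 T cells made up 268 of 13771 T cells (1.95%, exact 95% interval 1.72 to 2.19) in a pooled single-cell RNA-seq library of mouse T cells. A cell was a member when it had UMIs (unique molecular identifiers, each 1 counted RNA molecule) of at least 2 of the 5 marker genes Cxcr5, Pdcd1, Il21, Sostdc1 and Ascl2. It also had to carry at least 2 UMIs over the T cell genes Cd3e, Cd3d, Cd3g and Trac and none of Il1rl1, Cd79a and Ms4a1. Before these 3 exclusions 290 cells met the marker rule, and 22 were dropped, 19 of them for Il1rl1, a gene of adipose regulatory T cells and type 2 cells, 2 for Cd79a and 1 for Ms4a1, both B cell genes. A UMI of Foxp3, the defining gene of regulatory T cells, was found in 9 members, which are described apart, and the word members below stands for the other 259 unless stated.

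Follicular helper T cells enter B cell follicles through the chemokine receptor CXCR5, hold contact with B cells through CD40 ligand, ICOS and SAP-dependent receptors, and drive antibody maturation with interleukin-21 and interleukin-4. Their programme is set by the repressor Bcl6 with Tox2, Ascl2, Maf and Tcf7, and is opposed by Blimp-1 (Prdm1), Id2, Klf2 and interleukin-2 and interleukin-7 receptor signals. They are a standard population of spleen, and T cells with high PD-1 and low proliferative capacity have also been described in visceral fat of ageing and obese mice.

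The study compared CD4 T cells of visceral adipose tissue and spleen between mice with and without the clock transcription factor Bmal1 in regulatory T cells. All mice were C57BL/6 Foxp3.Cre-YFP, a strain in which the Foxp3 locus drives Cre, so that Bmal1 was kept (Treg-bmal1WT) or deleted (Treg-bmal1KO) in Foxp3-expressing cells. Cells that never express Foxp3 keep Bmal1 in either genotype. CD4 T cells sorted at zeitgeber time 0 or 12, counted in hours from lights on, were tagged with hashtag antibodies by genotype, time and tissue and pooled into 1 library. Ages and numbers of mice are not given in the sources used here.

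The 8 combinations of tissue, genotype and time cannot be told apart in these data, because the hashtags are only numbered. Hashtags 1 to 6 had at least 560096 tag counts each, while hashtags 7 to 10 had at most 278 each and were not used. Each hashtag is therefore given by its number, hashtags are not replicates of one another, and no test between groups of samples was possible. Intervals are exact 95% intervals that cover counting error only. The oligonucleotide of each hashtag antibody is shown because its sequence is the only thing that assigns a cell to its sample of origin.
hashtag 1: acccaccagtaagac
hashtag 2: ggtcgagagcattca
hashtag 3: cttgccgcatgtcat
hashtag 4: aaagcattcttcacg
hashtag 5: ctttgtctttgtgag
hashtag 6: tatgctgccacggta

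The expression library held 22960 barcodes, of which 22952 were also in the hashtag library, and 96923402 UMIs, with a median of 3469 UMIs per barcode. After the cell filter 21236 barcodes were left and 14382 of them had a single hashtag. Members had a median of 3218 UMIs per cell and 1057581 UMIs in all. The sort was checked by Cd4, of which a UMI was found in 61.9% of the 268 cells against 42.5% of all T cells, while Cd8a was not seen in any of the 268. Of 12 B cell genes, 9 had UMIs in members, and Ly6d and Fcmr were at 0. Their summed level was 1381 CPM (the UMIs of a gene per 1000000 UMIs of its class) in members, 1130 CPM in antigen-experienced and 1161 CPM in all other comparison T cells. In hashtag 5 these levels were 1553, 1061 and 998 CPM, and in hashtag 6 they were 1300, 936 and 1423 CPM. The immunoglobulin genes Ighm (686 UMIs in 199 members) and Igkc (568 UMIs in 203 members) gave most of the members' sum. The source of these UMIs was not tested. The natural killer gene Ncr1 and the innate-like T cell factor Zbtb16 were at 0. Globin genes reached 3704 CPM in members, but 3244 of their 3917 UMIs came from 1 cell of hashtag 5.

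Members were not spread evenly over the hashtags. In hashtag 5 they were 157 of 3584 T cells (4.38%, 3.73 to 5.10) and in hashtag 6 they were 79 of 3342 (2.36%, 1.88 to 2.94). In hashtag 1 there were 20 of 2585 (0.774%, 0.473 to 1.19) and in hashtag 4 there were 6 of 1182 (0.508%, 0.187 to 1.10). Hashtag 3 held 4 of 1647 (0.243%, 0.0662 to 0.621) and hashtag 2 held 2 of 1431 (0.140%, 0.0169 to 0.504). The intervals of hashtags 5 and 6 overlapped neither each other nor those of hashtags 1 to 4, which overlapped among themselves. Together hashtags 5 and 6 held 236 of the 268 cells (88.1%).

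Depth was not the same in every hashtag, with median UMIs per T cell from 2832 in hashtag 1 to 3515 in hashtag 6. With each T cell thinned to 2000 UMIs and shallower cells left out, the shares in hashtags 1 to 6 were 0.452%, 0.187%, 0.0800%, 0.111%, 2.69% and 1.46%. The order of hashtags 5 and 6 was kept, and their intervals (2.16 to 3.32 and 1.06 to 1.95) still did not overlap. A sort can set such shares, and whether it did was not tested.

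**Figure D1:**
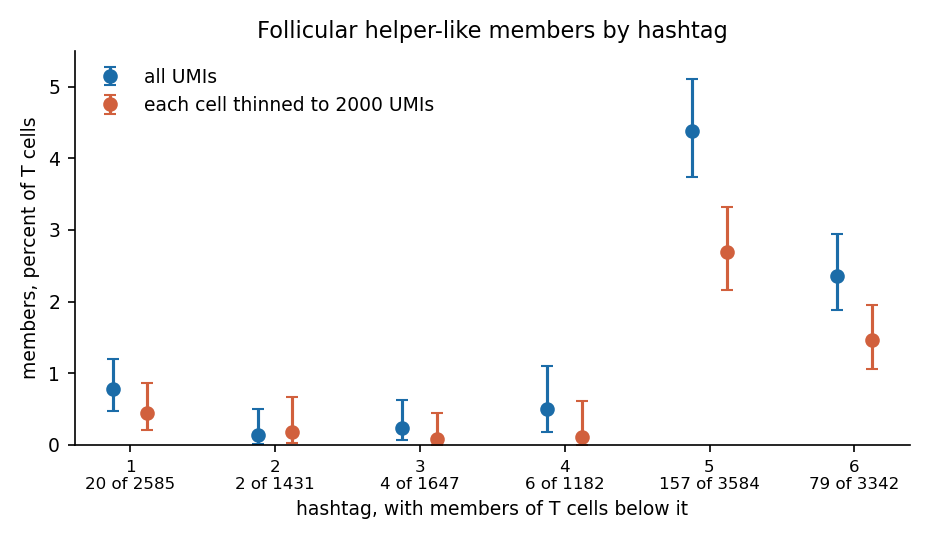
Share of T cells that are follicular helper-like members in each hashtag, in percent, from all UMIs (blue) and after thinning each cell to 2000 UMIs (orange). Bars are exact 95% intervals for counting error; hashtag 5 at 4.38% and hashtag 6 at 2.36% lie above hashtags 1 to 4, which reach at most 0.774%.

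Members were chosen by the detection of the 5 markers, so the marker values are a description and support nothing. Pdcd1, which encodes the inhibitory receptor PD-1, was detected in 85.1% of the 268 cells and Cxcr5 in 64.2%. Sostdc1, which encodes a secreted WNT and BMP antagonist, was found in 31.3%, Ascl2, a transcription factor gene that induces Cxcr5, in 29.9% and the helper cytokine gene Il21 in 24.6%. Among all T cells Pdcd1 was found in 9.30%, Cxcr5 in 3.85%, Sostdc1 in 1.01%, Il21 in 0.893% and Ascl2 in 0.835%. As a measure of background, 1520 naive-type T cells (UMIs of genes of naive T cells such as Ccr7, none of Cd44; median 3929.5 UMIs) had Pdcd1 in 3.22%, Cxcr5 in 2.50%, Il21 and Sostdc1 in 0.526% each and Ascl2 in 0.263%.

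Most members stood at the threshold, with 194 of the 268 cells having exactly 2 markers, 57 having 3, 14 having 4 and 3 having all 5. All 3 cells with 5 markers were in hashtag 6. Just outside the rule stood 1031 T cells with 1 marker and no Foxp3 UMI, of which 617 had Pdcd1, 305 Cxcr5, 46 Il21, 42 Sostdc1 and 21 Ascl2. The members fell into 25 combinations. Cxcr5 with Pdcd1 alone was the most frequent, in 89 cells, followed by Pdcd1 with Sostdc1 in 32, Pdcd1 with Il21 in 21 and Cxcr5, Pdcd1 and Ascl2 in 20. Of 20 hashtag 1 members, 7 had Cxcr5 with Pdcd1, 5 Pdcd1 with Sostdc1 and 4 Pdcd1 with Il21.

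**Figure D2:**
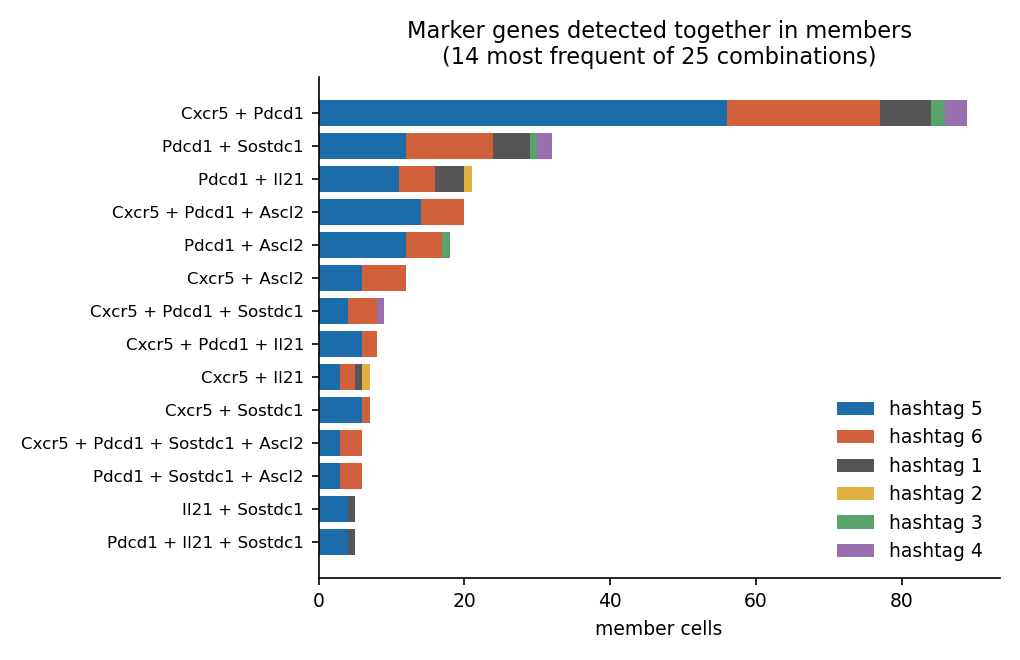
Number of member cells (x axis) with each set of marker genes detected, for the 14 most frequent of 25 combinations, coloured by hashtag. Cxcr5 with Pdcd1 leads with 89 cells, and hashtags 5 and 6 fill most of each bar.

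What the members share beyond these markers was read against antigen-experienced T cells that showed none of the 5. These 1220 comparison cells passed the same exclusions, had no Foxp3 UMI, a UMI of Cd44, an adhesion receptor gene of activated T cells, and none of the genes of naive T cells used here, such as Ccr7, and their median depth was 2880.5 UMIs. Their levels were weighted to the members' mix of hashtags, and the values of hashtag 5 (151 members, 172 comparison cells) and hashtag 6 (79 and 178) are given apart. The interval after a log2 ratio is that of the pooled counts of hashtags 5 and 6, so the ratio weighted over all hashtags need not lie inside it. Of 6170 genes at 20 CPM or more in either class, 259 (4.2%) were at least 2-fold higher in members and 189 (3.06%) at least 2-fold lower, with a median log2 ratio of 0.07 over all genes. Against all 9516 other T cells without a marker, 380 of 5917 genes (6.42%) were 2-fold higher and 88 (1.49%) 2-fold lower, with a median log2 ratio of 0.23.

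The transcription factors of the follicular helper programme were at the high end of this comparison. Of 11 measured factors 6 were at least 2-fold higher and none was 2-fold lower, against the 4.2% and 3.06% of all genes, and the list's median log2 ratio was 1.24. Tox2, which opens chromatin at follicular helper genes, stood at 110 CPM in members and 9.22 CPM in comparison cells of hashtag 5, and at 132 and 11.6 CPM in hashtag 6 (log2 ratio 3.34, 2.62 to 4.49). Bcl6, the lineage-defining repressor, was at 59.2 against 3.69 CPM in hashtag 5 and 41.9 against 6.64 CPM in hashtag 6 (log2 ratio 3.15, 2.12 to 4.86). Its level rests on 51 UMIs in 42 members. In the other hashtags Bcl6 had 3 UMIs in hashtag 1 and 0 in hashtags 2, 3 and 4, and Tox2 had 3, 0, 0 and 1.

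Pou2af1, which encodes the transcriptional coactivator OCA-B, was at 49.1 against 9.22 CPM in hashtag 5 and 51.6 against 4.98 CPM in hashtag 6 (log2 ratio 2.59, 1.74 to 4.13). Tox, a relative of Tox2, was at 294 against 90.4 CPM and at 281 against 79.7 CPM (log2 ratio 1.73, 1.43 to 2.12). For these 4 factors the members of hashtags 5 and 6 were both well above their comparison cells. Id3, an inhibitor of E proteins, was higher by a log2 ratio of 1.40 and the AP-1 family member Batf by 1.24. Tcf7 (0.94), Maf (0.89) and Nfatc1 (0.88) were above the comparison cells by less than 2-fold, and Stat3 stood at 0.26 and Lef1 at -0.22. Irf4 did not reach 20 CPM.

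Factors and receptors that oppose the programme lay mostly on the other side, with 4 of 10 measured at least 2-fold lower and 1 at least 2-fold higher. Over all genes these shares were 3.06% and 4.2%. The list's median log2 ratio was -0.69 weighted, -0.29 in hashtag 5 and -0.98 in hashtag 6. Il7r, the receptor subunit for the survival cytokine interleukin-7, was at 108 CPM in members and 469 in comparison cells of hashtag 5, and at 152 and 513 CPM in hashtag 6 (log2 ratio -1.83, -2.30 to -1.70). Id2, an E protein inhibitor of effector cells, was at 154 against 487 and 119 against 559 CPM (log2 ratio -1.82, -2.17 to -1.61). Klf2, which keeps T cells in circulation, was at 228 against 629 and 242 against 466 CPM (log2 ratio -1.29, -1.45 to -0.99). Prdm1, the gene of the Bcl6 antagonist Blimp-1, stood at -1.36, but rests on 10 UMIs in members. The exception was Stat5a, a mediator of interleukin-2 signals, at 1.07 (0.50 to 2.16).

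Interleukin-2 receptor genes were below the comparison cells by less than 2-fold, with Il2ra at -0.85 and Il2rb at -0.53. Stat5b (0.31), Foxp1 (-0.07) and Foxo1 (-0.22) lay nearer to 0, and Foxo1 had opposite signs in hashtags 5 and 6. Against all other T cells, many of which are naive, Id2 was only -0.61 and Prdm1 -0.57, while Il7r (-1.68) and Klf2 (-1.51) were still at least 2-fold lower.

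Genes of B cell help and contact gave 6 of 16 at least 2-fold higher and none 2-fold lower, against 4.2% and 3.06% of all genes. Their median log2 ratio was 0.86. Tnfsf8, the CD30 ligand (CD153), was at 294 against 109 CPM in hashtag 5 and 239 against 56.4 CPM in hashtag 6 (log2 ratio 1.59, 1.41 to 2.12). Cd200, an inhibitory ligand, was at 168 against 73.8 and 158 against 56.4 CPM (log2 ratio 1.57, 0.93 to 1.77). Sh2d1a, which encodes the adaptor SAP of the SLAM receptors, was at 371 against 192 and 484 against 179 CPM (log2 ratio 1.14, 0.90 to 1.40). Members of these hashtags had the higher level in each case.

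The helper cytokine gene Il4 rests on 29 UMIs in 21 members, 13 in hashtag 5 and 16 in hashtag 6. Its log2 ratio was 0.55 in hashtag 5 and 3.01 in hashtag 6 (1.39 weighted). The TNF family ligand gene Tnfsf11 stood at 1.19 and the costimulatory receptor gene Tnfrsf4, which encodes OX40, at 1.14. The SLAM family receptor gene Slamf6 (0.93) and the interleukin-6 receptor genes Il6st (0.94) and Il6ra (0.80) were higher by less than 2-fold. Icos (0.57) and Cd40lg (0.24), the genes of the costimulators most tied to B cell help, were above other antigen-experienced cells by less than 2-fold. Cd40lg was at 0.47 in hashtag 5 and 0.32 in hashtag 6 (0.03 to 0.76). After thinning, unweighted over all hashtags, Icos was detected in 29.7% of members (23.9 to 35.9) and 20.4% of antigen-experienced cells (17.9 to 23.0). Cd40lg was found there in 19.9% and 28.3%. Slamf1 (0.08), Cd84 (-0.05) and Ly9 (-0.38) also differed by less than 2-fold. Il10 (0.77) and Il21r (0.57) had opposite signs in hashtags 5 and 6, and 48.4% of the Il10 UMIs came from 1 cell.

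**Figure D3:**
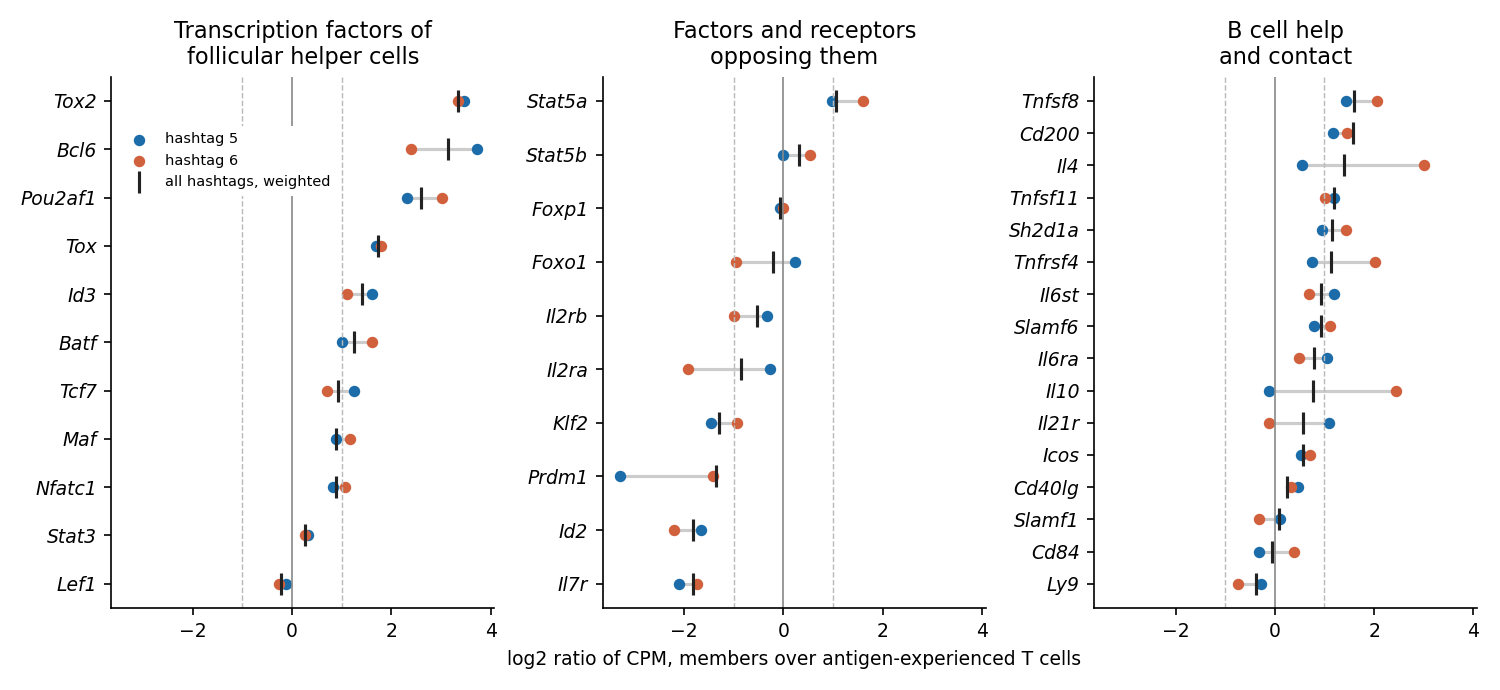
Log2 ratio of CPM in members over antigen-experienced T cells without a marker (x axis) for the measured genes of 3 lists, in hashtag 5 (blue), hashtag 6 (orange) and weighted over all hashtags (black bar). Dashed lines mark 2-fold; Tox2 (3.34) and Bcl6 (3.15) lead the first list, Il7r (-1.83) and Id2 (-1.82) close the second and Tnfsf8 (1.59) heads the third.

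Detection per cell was compared at equal depth, after thinning each cell to 2000 UMIs, within hashtags 5 and 6 so that the mix of hashtags did not enter. In hashtag 5 a Tox2 UMI was found in 18.1% of members (12.1 to 25.6), 2.0% of antigen-experienced cells (0.414 to 5.73) and 0.154% of naive-type cells, and in hashtag 6 in 22.9% (13.7 to 34.4), 1.90% and 0.450%. Tox was found in 48.6% of members and 13.3% of antigen-experienced cells in hashtag 5, and in 44.3% and 13.3% in hashtag 6. Il7r ran the other way, at 22.5% against 49.3% and 17.1% against 51.3%. For these 3 genes the intervals of members and antigen-experienced cells did not overlap in either hashtag. Bcl6 was found in 10.1% of members (5.66 to 16.4) and 1.33% of antigen-experienced cells (0.162 to 4.73) in hashtag 5. In hashtag 6 its shares, 4.29% (0.893 to 12) and 1.27% (0.154 to 4.50), had overlapping intervals, so a difference was not detectable there at this depth. Cd40lg (21.0% against 19.3%, and 14.3% against 18.4%) and Lef1 (34 of 138 cells against 36 of 150, and 14 of 70 against 33 of 158) also had overlapping intervals in both hashtags. Unthinned and over all hashtags, Bcl6 was detected in 16.2% of members and Tox2 in 27.8%.

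Among inhibitory receptors and ectoenzymes 4 of 8 measured were at least 2-fold higher and 2 at least 2-fold lower, against 4.2% and 3.06% of all genes. Their median log2 ratio was 1.07. Lag3, an inhibitory receptor gene, was at 117 against 25.8 CPM in hashtag 5 and 90.3 against 18.3 CPM in hashtag 6 (log2 ratio 2.24, 1.65 to 3.0). Izumo1r, which encodes the folate receptor FR4, was at 975 against 417 and 858 against 279 CPM (log2 ratio 1.34, 1.27 to 1.62). Nt5e, which encodes CD73, stood at 1.24 and the inhibitory receptor gene Btla, named after its value was seen, at 1.22. Cd160 (-1.25) and the ectoenzyme gene Entpd1 (-1.12), the latter also named after its value was seen, were the lower ones. Against all other T cells Cd160 turned to 0.83.

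The response to T cell receptor signals was read from 13 measured genes, of which 5 were at least 2-fold higher and none 2-fold lower. Over all genes 4.2% were higher and 3.06% lower by that much. The early response factors Egr2 (36.9 against 6.03 CPM; log2 ratio 2.52, 0.97 to 3.34) and Egr3 (1.62, 0.69 to 2.99) led them, with Tnfrsf9, the gene of the costimulator 4-1BB, at 1.27, Tnfrsf4 at 1.14 and the NF-kappaB subunit gene Rel, named after its value was seen, at 1.02 (0.27 in hashtag 5 and 0.73 in hashtag 6). Egr2 rests on 39 UMIs and Egr3 and Tnfrsf9 on 33 each. Against antigen-experienced cells with 1 marker, Egr3 was at -0.18 and Tnfrsf4 at -0.14. Of 8 measured anergy genes 4 were at least 2-fold higher and none 2-fold lower. These are Egr2 and Egr3, counted here too, and Izumo1r and Nt5e, counted among the inhibitory receptors and ectoenzymes too. Nt5e was at -0.36 against antigen-experienced cells with 1 marker.

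Homing genes had a median log2 ratio of -0.54, with 1 of 13 measured at least 2-fold higher and 3 at least 2-fold lower. Over all genes these shares were 4.2% and 3.06%. The higher one was S1pr2, the receptor that confines cells to germinal centres, at 49.1 against 14.8 CPM in hashtag 5 and 51.6 against 8.30 CPM in hashtag 6 (log2 ratio 1.72, 1.22 to 3.15). It had 45 UMIs in 35 members, all in these hashtags. The tissue homing receptor genes Cxcr6 (-1.89, -2.64 to -1.77) and Ccr2 (-1.31) and the selectin ligand gene Selplg (-1.27) were lower. Against all other T cells Cxcr6 was -0.28.

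Th1 genes were mostly lower, 7 of 15 by at least 2-fold against 3.06% of all genes, with a median log2 ratio of -0.86. The chemokine gene Ccl5 was at 1112 against 4752 CPM in hashtag 5 and 229 against 2737 CPM in hashtag 6 (log2 ratio -1.98, -2.31 to -2.08), and 259 of its 1051 UMIs came from 1 hashtag 5 cell. Without that cell its ratio was -2.39. Ly6c2 (-2.61, -3.08 to -1.05), Il18r1 (-2.12) and Xcl1 (-1.94) were lower too, and no UMI of Ly6c2 or Xcl1 was seen in hashtag 6 members. In hashtag 5 Ly6c2 was lower by less than 2-fold, at 18.6 against 33.2 CPM (-0.81). Of its 13 UMIs in members 61.5% came from 1 cell. Ifng, the defining Th1 cytokine gene and named after its value was seen, was above the comparison cells in hashtag 5 (40.6 against 22.1 CPM) and in hashtag 6 (51.6 against 18.3 CPM). Of its 16 UMIs in hashtag 6 members, 9 came from 1 cell, and of its 86 UMIs in all members, 25 came from 1 cell of hashtag 1.

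Ccl4 and Ccl3 counted as 2-fold higher in the weighted ratio, but 566 of 574 Ccl4 UMIs came from 3 cells of hashtag 1 and both genes were below the comparison cells in hashtags 5 and 6. The Th1 result depends on the comparison cells. Against all other T cells 3 of 13 Th1 genes were at least 2-fold higher (Ccl4, Ccl3 and Ifng) and 2 lower (Ly6c2 and Il18r1). Over all genes these shares were 6.42% and 1.49%. Of the 3 higher genes 1 had the same sign in hashtags 5 and 6 as in the weighted ratio, and of the 2 lower ones 1. The list's median was 0.29 weighted, 0.01 in hashtag 5 and -0.33 in hashtag 6. For all genes it was 0.23, 0.23 and 0.26. Against antigen-experienced cells, 2 of 4 measured type 2 and type 17 genes were at least 2-fold lower (3.06% of all genes), Rora (-1.43) and Tmem176a (-1.26).

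Regulatory T cell genes were mixed in the members without Foxp3, with 3 of 10 measured at least 2-fold higher and 2 at least 2-fold lower. Over all genes these shares were 4.2% and 3.06%. Ikzf2, the gene of Helios, was at 692 against 373 CPM in hashtag 5 and 810 against 209 CPM in hashtag 6 (log2 ratio 1.13, 1.16 to 1.55), and Izumo1r and Tnfrsf4 are the others. The lower ones by the weighted ratio were Areg (-1.29), the gene of amphiregulin, and Klrg1 (-1.55), the latter named after its value was seen. Areg was at -0.89 in hashtag 5 and -0.55 in hashtag 6 (-1.90 to 0.38), and Klrg1 at -1.78 and 0.33 (-2.25 to 0.07), so that neither was 2-fold lower in both hashtags and Klrg1 had opposite signs. The summed level of Ikzf2, Ctla4, Il2ra and Gpr83 was 877 CPM in members and 484 CPM in the comparison cells. A Foxp3 transcript can go undetected in a cell that expresses it, and the share of such cells among the members was not tested.

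For the remaining lists the counts stand against 4.2% of all genes higher and 3.06% lower by at least 2-fold. Naive T cell genes had 0 of 8 at least 2-fold higher and 2 lower, Il7r and Klf2, counted among the opposing genes too. Glycolysis genes had 2 of 12 higher (Pgam1 at 1.42 and Tpi1 at 1.02) and 1 lower (Slc2a3 at -1.41). Interferon response genes had 0 of 11 higher and 2 lower (Ifit1 at -1.58 and Bst2 at -1.12). Proliferation genes had 3 of 12 higher (Tyms at 1.28, Cdk1 at 1.27 and Ccnb2 at 1.15) and none lower. Tyms was at 0.85 in hashtag 5 and 0.47 in hashtag 6, and of the 12 genes 6 had the same sign in both hashtags. Cdk1 had 22 UMIs in 11 members and was at 1.67 in hashtag 5 and 0.34 in hashtag 6 (-0.55 to 1.98). Ccnb2 had 23 UMIs in 6 members, 39.1% of them from 1 cell. After thinning, unweighted over all hashtags, Cdk1 was detected in 1.27% of members and 1.40% of antigen-experienced cells. Ccnb2 was found there in 1.69% and 1.80%, and Tyms in 6.78% and 3.89%. The intervals overlapped for each of these 3 genes, so a difference was not detectable at this depth. Of 11 AP-1 and dissociation stress genes 1 was at least 2-fold different, Fos at -1.10, named after its value was seen, and it had opposite signs in hashtags 5 (-0.57) and 6 (0.23; -0.80 to 0.36).

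Genes that carry the clock were close to the limit of detection in members. Of 17 clock genes 6 reached 20 CPM, none was at least 2-fold higher and Rora alone was 2-fold lower. Arntl, the gene of Bmal1, had 18 UMIs in hashtag 5 members (30.5 CPM, 18.1 to 48.1), 4 in hashtag 6 (12.9 CPM, 3.52 to 33.0) and 1 in hashtag 1. The intervals of hashtags 5 and 6 overlap, so a difference between them was not detectable at this depth. In antigen-experienced cells Arntl was at 29.5 CPM in hashtag 5 and 29.9 CPM in hashtag 6. Reads of the 3′ end say nothing about a deletion elsewhere in the gene.

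Over all genes the highest ratios at 50 CPM or more included genes outside the lists. Art2a, a gene of the ADP-ribosyltransferase family, was at 301 CPM in hashtag 5 members and 18.4 CPM in their comparison cells, and at 242 and 28.2 CPM in hashtag 6 (log2 ratio 3.58, 3.0 to 4.2). Its 253 UMIs lay in 80 members, all in hashtags 5 and 6. Cebpa, a transcription factor gene best known from myeloid cells and fat, was at 82.9 against 3.69 CPM in hashtag 5 and 51.6 against 0 CPM in hashtag 6 (log2 ratio 4.62, 3.46 to 8.44). It was spread over 49 members with 66 UMIs, while the comparison cells of these hashtags had 2 UMIs.

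Cxxc5 (3.24, 2.11 to 4.32), a CXXC zinc finger gene, Angptl2 (3.12, 2.10 to 4.0), which encodes a secreted angiopoietin-like protein, Marcksl1 (2.98) and the calcium channel gene Cacna1d (2.43) followed. Each of these 4 was found in 42 to 55 members. After thinning, Art2a was detected in 32.6% of members and 2.0% of antigen-experienced cells in hashtag 5 and in 22.9% and 4.43% in hashtag 6. Cebpa was detected in 15.2% and 0.667% in hashtag 5, and in 6 of 70 members and 0 of 158 antigen-experienced cells in hashtag 6. The lowest ratios at 50 CPM or more belonged to Nedd4 (-3.57), which encodes a ubiquitin ligase, Ly6c2, the cathepsin gene Ctsw (-2.47) and Cldn5 (-2.23), an endothelial gene. Endothelial genes summed to 70.9 CPM in members and 175 CPM in comparison cells, and their part in the Cldn5 value was not tested.

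Spp1, which encodes osteopontin, and Gal, which encodes the neuropeptide galanin, had high ratios that rest on few cells. Spp1 had 143 UMIs in 15 members: 55 in 5 cells of hashtag 1, 25 in 6 cells of hashtag 5 and 63 in 4 cells of hashtag 6, of which 60 were in 1 cell. No Spp1 UMI was seen in comparison cells of hashtags 5 and 6, where the lower bound of the log2 ratio was 4.89. Gal had 88 UMIs in 7 members, 85 of them in hashtag 5, 51 in 1 cell, and 1 UMI in the comparison cells. All 7 Gal cells had Cxcr5, and none of them had Spp1. Of the 15 Spp1 cells, 8 had Sostdc1, 7 Cxcr5 and 5 Cebpa.

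Spp1, Cebpa, Tnfsf8 and Cdkn1a, a cell cycle inhibitor gene, are the 4 of 5 measured genes of a list for PD-1 and CD153 positive T cells of fat that were at least 2-fold higher. Over all genes 4.2% were that much higher. Tnfsf8 is counted among the genes of B cell help too, and Spp1 was found in only 15 of the 259 members. Cdkn1a (1.27) had 26 UMIs in 10 members, 50% of them from 1 cell, and was 0.40 without it. Satb1, a chromatin organiser gene that this list expects to be low, was at -0.99.

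**Figure D4:**
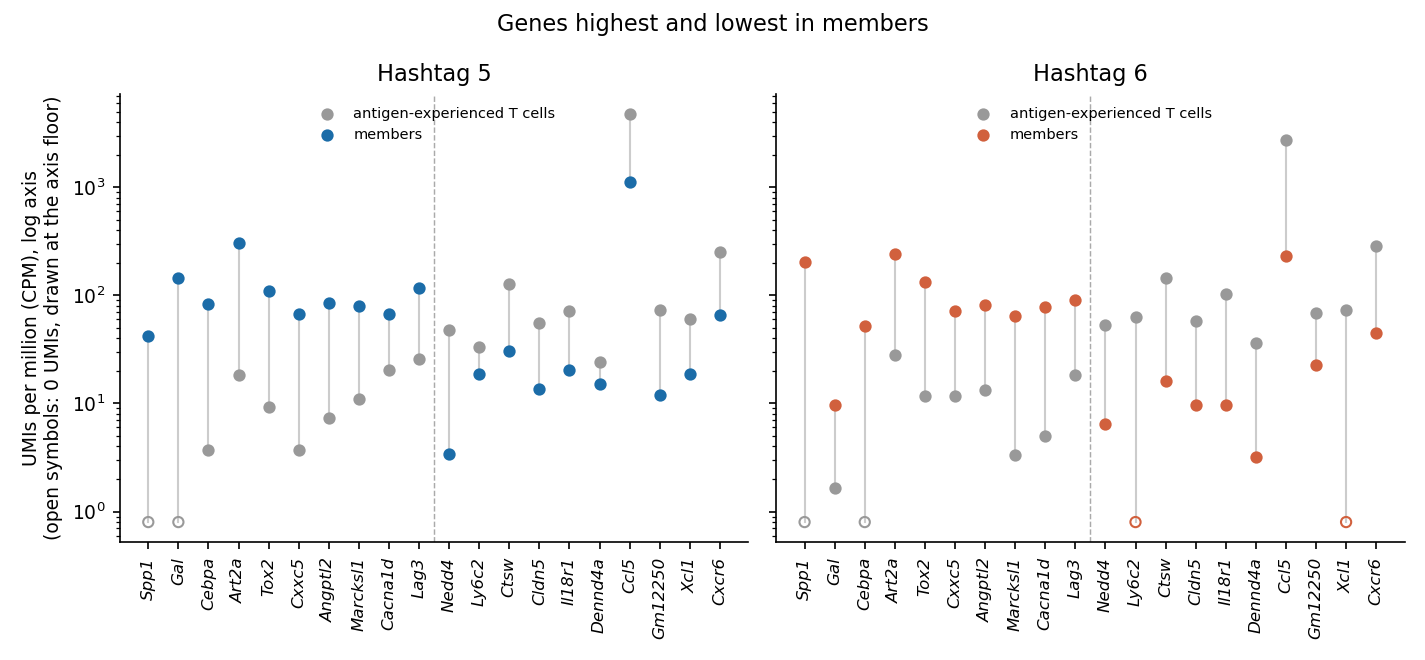
Level in CPM (log axis) of the 10 genes with the highest and the 10 with the lowest ratio at 50 CPM or more, in members (coloured) and antigen-experienced T cells without a marker (grey), for hashtags 5 and 6. Open symbols stand for 0 UMIs; Cebpa at 82.9 and 51.6 CPM in members faces 3.69 and 0 CPM, and Ccl5 at 1112 and 229 CPM faces 4752 and 2737 CPM.

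The number of markers detected was set against genes the rule did not use, over all T cells without Foxp3. Tox2 was at 6.37, 42.4, 90.6 and 153 CPM in hashtag 5 cells with 0, 1, 2 and at least 3 markers, and at 7.78, 38.7, 71.1 and 220 CPM in hashtag 6. Cebpa was at 2.23, 11.8, 49.0 and 159 CPM in hashtag 5 and at 2.04, 17.6, 16.4 and 102 CPM in hashtag 6. Bcl6 was at 5.36, 13.3, 56.3 and 65.7 CPM in hashtag 5 and at 4.57, 21.1, 21.9 and 70.7 CPM in hashtag 6. In cells with 1 marker, just outside the rule, Tox2 was thus already above cells with 0 markers in both hashtags, with intervals that did not overlap (31.8 to 55.3 against 4.90 to 8.15 CPM in hashtag 5).

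Klf2 ran the other way, at 672, 482, 250 and 181 CPM in hashtag 5 and 612, 463, 295 and 165 CPM in hashtag 6. Il7r dropped between 1 and 2 markers, from 316 to 103 CPM in hashtag 5 and from 335 to 153 CPM in hashtag 6. Id2 was at 182, 179, 181 and 93.1 CPM in hashtag 5, so that there it was lower in cells with at least 3 markers alone. In hashtag 6 Id2 was at 165, 198, 126 and 110 CPM, lower from 2 markers on. Against antigen-experienced cells with 1 marker, 24 of the 58 named genes past 2-fold were still past it, among them Tox (1.21), Cebpa (1.97), Il7r (-1.14) and Id2 (-1.10), while Tox2 was at 0.48, Bcl6 at 0.76 and Lag3 at 0.56.

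**Figure D5:**
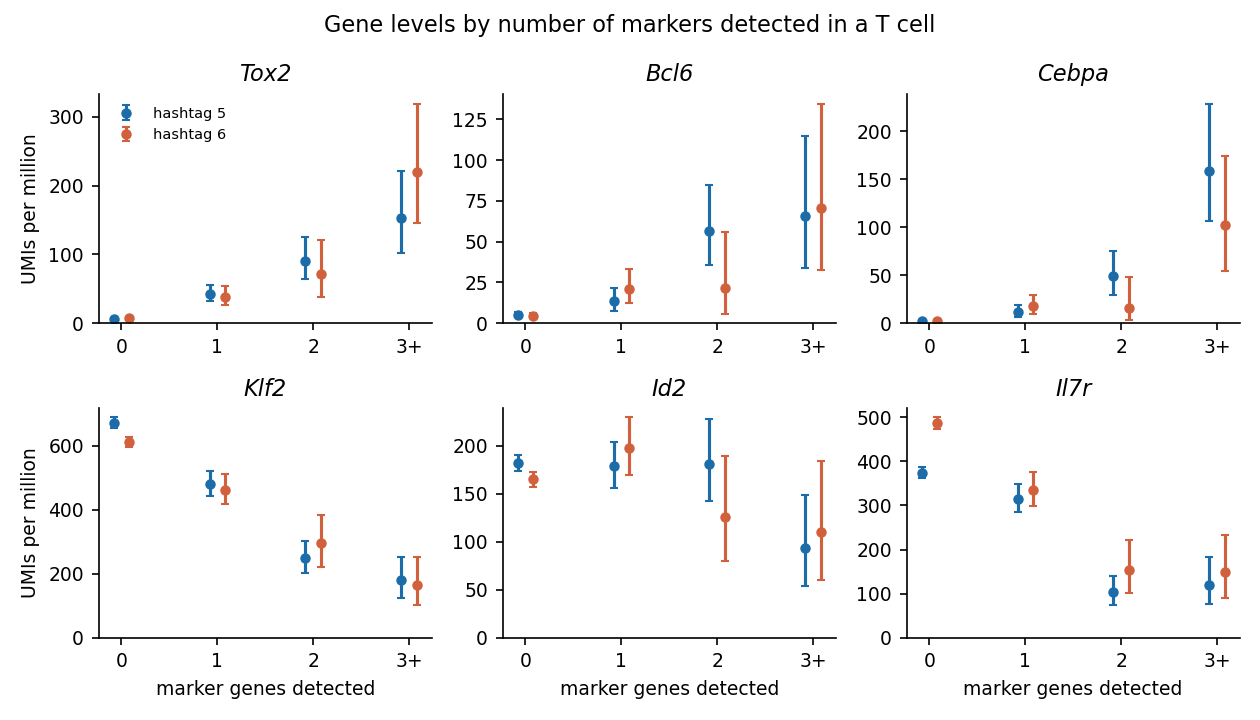
CPM of 6 genes that the rule did not use, in T cells without a Foxp3 UMI by the number of marker genes detected (0, 1, 2, and 3 or more), in hashtags 5 (blue) and 6 (orange), with exact 95% counting intervals. Tox2 stands at 6.37 CPM with 0 markers and 153 CPM with at least 3 in hashtag 5, and Klf2 at 672 and 181 CPM.

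Members with Cxcr5 (166 cells) and without it (93 cells) were set apart to see how the population varies, mainly within hashtag 5. Of 6365 genes 334 (5.25%) were at least 2-fold higher with Cxcr5 and 259 (4.07%) at least 2-fold lower, with a median log2 ratio of 0.00. The follicular helper factors differed little, with 0 of 12 at least 2-fold higher, 1 lower (Irf4, at -1.90 from 5 UMIs) and a median of -0.01. Within hashtag 5 Bcl6 was at 59.0 against 59.7 CPM and Cebpa at 84.6 against 79.6 CPM.

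By the weighted ratio 4 of 8 inhibitory receptor and ectoenzyme genes were at least 2-fold lower in the cells with Cxcr5 (Lag3, Cd160 and, named after their values were seen, Cd274 and Pdcd1lg2). Within hashtag 5 only Pdcd1lg2 (-1.83, -4.14 to -0.05) was 2-fold lower, with Lag3 at -0.90 (-1.64 to -0.19), Cd160 at -0.61 (-2.13 to 0.91) and Cd274 at -0.91 (-2.70 to 0.79). By the rule, members without Cxcr5 carried at least 2 of the other 4 markers. Lag3 was at 89.8 against 169 CPM in hashtag 5, and its weighted log2 ratio was -1.01. Tnfsf8 was at 215 against 448 CPM in hashtag 5 (weighted log2 ratio -0.94; interval in hashtag 5 -1.5 to -0.61). Egr2 stood at -1.68 (-4.73 to -0.96). Ccl5 was higher with Cxcr5, by 2.17 (1.67 to 2.39), with 28.6% of its UMIs from 1 cell.

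Among the largest differences over all genes, Gal (88 against 0 UMIs), Timp3 (3.45), Ccl3 (3.30), Mgll (3.21), Cd36 (2.73) and Pstk (2.36) were higher with Cxcr5. For Ccl3 97.6% of the UMIs came from 1 cell, and Timp3, Mgll and Cd36 had 38.2%, 42.5% and 46.2% from 1 cell. Olfr1369-ps1, a pseudogene with 0 UMIs in the cells with Cxcr5, Sirt1 (-2.30), Fcer1g (-2.21), Nrgn (-1.60) and Ncoa1 (-1.58) were lower. These ratios of higher and lower genes are weighted over hashtags. Within hashtag 5 Ccl3 was at 0.04 and Sirt1 at -0.88 (-3.38 to 1.47). Olfr1369-ps1 had only 2 UMIs in hashtag 5 cells without Cxcr5, and the upper bound of its log2 ratio there was 1.46. Fcer1g (-1.83), Nrgn (-2.06) and Ncoa1 (-2.28) were 2-fold lower within hashtag 5 too.

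The 9 members with a Foxp3 UMI were 3.36% of the 268 cells (1.55 to 6.28), against 364 of 10911 other T cells that passed the same exclusions (3.34%, 3.01 to 3.69). Follicular regulatory T cells, which restrain the germinal centre, carry Foxp3 with CXCR5 and PD-1, but a single Foxp3 UMI does not settle that these 9 are such cells, and 3 of them had no Cxcr5 UMI. In hashtag 5 they were 6 of 157 (3.82%, 1.42 to 8.13), in hashtag 4 they were 3 of 6, and in hashtag 6 there was none of 79, for which the exact interval reaches 4.56% and 3 cells would be 3.80%. The other T cells had Foxp3 in 2.38% (1.89 to 2.97) in hashtag 5 and 2.62% (2.09 to 3.25) in hashtag 6. In hashtags 1 to 4 their share was 3.69% to 5.30%, so the pooled 3.34% rests on another mix of hashtags than the members have. Each of the 9 members had a single Foxp3 UMI. All 9 had Ikzf2, with 2 to 8 UMIs per cell, and all 9 had Pdcd1, while 6 had Cxcr5.

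Their Ikzf2 level was 1291 CPM (955 to 1707), against 697 CPM (647 to 749) in members without Foxp3 and 953 CPM (899 to 1009) in other T cells with a Foxp3 UMI. Il2ra was at 158 CPM (58.0 to 344), closer to the 184 CPM of other Foxp3-positive T cells than to the 24.6 CPM (16.1 to 36.0) of the members without Foxp3. Tox2 was at 132 CPM (42.8 to 308) from 5 UMIs, against 104 CPM in members without Foxp3 and 21.9 CPM (14.4 to 31.9) in other Foxp3-positive T cells. Klrg1 (290 CPM, 145 to 519) and Areg (316 CPM, 163 to 552) were above their levels of 13.2 and 16.1 CPM in members without Foxp3, from 11 UMIs in 2 cells and 12 UMIs in 3 cells. Of these 9 cells, 1 of hashtag 4 held 17333 of their 37949 UMIs, against a median of 2575 per cell. That cell carried 4 of the 6 Il2ra UMIs, 5 of the 11 Klrg1 UMIs and 1 of the 5 Tox2 UMIs, and the other 6 Klrg1 UMIs and 9 of the 12 Areg UMIs were in another cell of hashtag 4.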

How the data were processed

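Single-cell 3′ RNA-seq of sorted CD4 T cells gave an expression library and a hashtag library. The deposited values are raw UMI counts and raw hashtag counts per barcode, with no normalisation by the authors. Cell Ranger 6.0, Seurat 3 and mm10 are given in the submitters' processing notes, but version 4.0.0 of cellranger per the file headers, a conflict the values do not settle. Barcodes with at least 500 genes, under 10% mitochondrial UMIs and a top tag of hashtags 1 to 6 with at least 80% of tag counts and at least 10 counts were kept, and no doublet caller was run beyond this. UMIs were summed per class and hashtag with pandas 2.3.3, scipy 1.17.1 and numpy 2.4.6 under Python 3.11.15, and log2 ratios of CPM with a prior count of 0.5 were taken. Genes at 20 CPM or more in either class were read, and those past 2-fold counted as higher or lower. The genes that define the classes (the markers, Foxp3, Cd44, Ccr7 and a gene that is not reported here) were left out. Ratios within a hashtag were taken where both classes had 30 cells or more. There are no replicates, so no test was run.

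Shares carry exact Clopper-Pearson intervals and levels exact Poisson intervals, which cover counting error only. All measured genes of the 3 follicular helper lists are named, up to 4 genes with 1 sign in all hashtags used from each other list, and over all genes the 10 highest and 10 lowest at 50 CPM or more (6 and 6 for the Cxcr5 split). The members and lists were chosen with earlier results of these data known. The script was tested on simulated data. Alternatives changed the comparison cells, weighting, markers needed, hashtag rule, scaling, prior count, filters and depth, and left out each hashtag.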

Additional observations from a re-analysis of the deposited data

Results flagged for a closer look

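Among the barcodes that passed the cell filter but had no single hashtag, 138 of 6610 T cells met the gene rules for follicular helper-like cells (2.09%, exact interval 1.76 to 2.46), a signal in data that no comparison above used. Their median depth was 6179 UMIs, against 3202 UMIs in the 268 cells with a single hashtag. Pairs of cells in a droplet would add up markers, and their part in this share was not tested.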

How the results depend on the processing

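The share of members among T cells was 0.537% with at least 3 markers required and 1.25% after thinning to 2000 UMIs, against 1.95%, and stayed within its counting interval under the other alternatives. The count of genes at least 2-fold higher (259) became 508 with at least 3 markers, 478 with a 10 CPM filter, 2679 with no filter beyond 1 UMI and 448 after thinning, and lay between 259 and 341 as each hashtag was left out. The count of lower genes (189) became 88 against all other T cells, 311 against antigen-experienced cells with 1 marker, 299 without weighting, 366 with at least 3 markers, 352 with a 10 CPM filter and 2724 with no filter, and lay between 182 and 286 as each hashtag was left out, highest without hashtag 5. Centring on the median of all genes gave 214 higher and 220 lower. Whether noise from fewer cells or from a lower filter changed these counts was not tested. Against cells with 1 marker, Tnfrsf4 (-0.14), Nt5e (-0.36) and Egr3 (-0.18) changed sign. Cd160 was 0.83 against all other T cells, Cdkn1a -0.61 without weighting and Tyms -0.30 with at least 3 markers. Of 90 named genes, 80 kept their direction against cells with 1 marker and 82 or more under every other alternative. Leaving out each gene's top member cell, an alternative chosen after seeing the data, kept 53 of 58 past 2-fold, and hashtags 5 and 6 alone, also chosen then, kept 52. No paired analysis was possible because there is 1 pooled library and the hashtags carry no stated sample. Low depth per cell limits detection, so an undetected gene is not an absent one.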
